A study of Mus musculus with 12 samples.

Results

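The Hox genes are described here as markers of hindbrain tissue in whole-brain RNA. They are the 39 protein-coding genes whose symbol is Hox, a cluster letter from a to d and a number, of 56748 genes in the deposited table, and they were chosen by name alone, with no measured value. All 12 libraries came from adult C57BL/6 mice, an inbred strain, and each of 3 arms held 2 females and 2 males. The LPS+DMA arm received lipopolysaccharide (LPS, a bacterial membrane molecule sensed by innate immune cells) by intraperitoneal injection at 0.5 mg/kg a day together with daily N,N-dimethylacetamide (DMA, a small organic solvent). The DMA dose was not stated in the labels. The LPS arm received LPS alone on the same days, and the PBS arm received sterile phosphate-buffered saline. Brains were collected on day 7, and no arm carried a genetic change per the labels.

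Hox genes encode homeodomain transcription factors that give cells their position along the head-to-tail axis. They lie in 4 clusters, and within a cluster the low paralogue numbers are expressed furthest forward, in the hindbrain, while the high numbers mark the spinal cord and the tail end of the trunk. The forebrain and midbrain form without Hox expression, and most of the cerebellum comes from the foremost hindbrain segment, which also lacks it. Neurons of the pons and medulla keep Hox expression in the adult brain.

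Of the 39 members, 20 were detected, meaning at least 3 reads in at least 2 of the 12 libraries. Another 6 had reads below that limit, with at most 18 reads in a library (Hoxc6 in LPS male 1), and 13 had no read in any library. Detection followed the paralogue number. It held for 7 of 8 members of groups 1 to 3, which start in the hindbrain, for 7 of 7 members of groups 4 and 5, for 5 of 8 members of groups 6 to 8 and for 1 of 16 members of groups 9 to 13, which mark the caudal body. The single detected member of the last set was Hoxd13. By cluster, 7 of 11 members were detected in HoxA, 7 of 10 in HoxB, 2 of 9 in HoxC and 4 of 9 in HoxD. In GRCm39 coordinates of the deposited table, the members of HoxA lie at chr6:52132570-52237788, those of HoxB at chr11:96085142-96259082, those of HoxC at chr15:102829538-102945278 and those of HoxD at chr2:74498654-74595486. No member reached 3 reads in all 12 libraries. The floor of 3 reads corresponded to between 0.0281 and 0.0469 FPKM (fragments per kilobase of gene length, scaled to the library) for a gene of the median Hox length of 2461 bases.

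To show the start regions of expressed members, the 250 bases before the RefSeq start are printed for the member of each cluster with the highest mean FPKM among those that have an entry. Hoxa5, Hoxb4 and Hoxc4 were highest in the same library, LPS male 1, and Hoxd1 is a member with another pattern. The RefSeq promoter table, in build GRCm38.p6, matched 22 of the 39 members, with 24 windows. It gave no window for the tested members Hoxa4, Hoxb2, Hoxb3, Hoxb5 and Hoxc5. The windows are chr6:52204588-52204837 on the minus strand for Hoxa5, chr11:96318017-96318266 on the plus strand for Hoxb4, chr15:103034145-103034394 on the plus strand for Hoxc4 and chr2:74762730-74762979 on the plus strand for Hoxd1. Capitals mark 2 motifs, AGGTCA, the half-site of retinoic acid and related nuclear receptors (TGACCT on the other strand), and TTGCCATAATGG, the longest run of letters that the Hoxa5 and Hoxc4 windows share, picked after reading them.
Hoxa5: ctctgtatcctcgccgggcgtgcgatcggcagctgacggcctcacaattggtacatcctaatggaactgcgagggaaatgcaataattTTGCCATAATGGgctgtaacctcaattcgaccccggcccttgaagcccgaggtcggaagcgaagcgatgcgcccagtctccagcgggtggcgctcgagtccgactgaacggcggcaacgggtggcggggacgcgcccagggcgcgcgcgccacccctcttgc
Hoxb4: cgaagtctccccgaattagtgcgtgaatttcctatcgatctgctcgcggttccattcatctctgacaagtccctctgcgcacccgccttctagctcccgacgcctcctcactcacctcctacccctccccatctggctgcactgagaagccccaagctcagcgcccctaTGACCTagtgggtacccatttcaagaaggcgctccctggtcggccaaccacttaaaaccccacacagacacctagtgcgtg
Hoxc4: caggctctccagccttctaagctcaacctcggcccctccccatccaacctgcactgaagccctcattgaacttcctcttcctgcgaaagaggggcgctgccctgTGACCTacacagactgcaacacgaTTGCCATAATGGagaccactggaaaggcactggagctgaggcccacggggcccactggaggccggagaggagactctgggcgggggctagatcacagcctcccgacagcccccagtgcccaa
Hoxd1: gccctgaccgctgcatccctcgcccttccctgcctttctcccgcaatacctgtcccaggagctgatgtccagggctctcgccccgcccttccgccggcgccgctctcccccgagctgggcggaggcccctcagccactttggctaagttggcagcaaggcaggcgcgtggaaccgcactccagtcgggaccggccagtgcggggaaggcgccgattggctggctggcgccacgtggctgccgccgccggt
AGGTCA, searched on both strands, lay in 6 of the 24 Hox windows (Hoxb4, Hoxc4, Hoxd3, Hoxd4, Hoxd8 and Hoxd10), against 4607 of 32851 windows of the same length over all genes, or 14.0%. The 12 letters TTGCCATAATGG, also searched on both strands, lay in 2 of all 32851 windows, and those 2 were Hoxa5 and Hoxc4. The word holds TAAT, the core that many homeodomain proteins bind, and it does not overlap the AGGTCA match of Hoxc4. The Hox windows held a median of 12.5 CpG sites, against 6 over all windows, and the printed windows held 28 (Hoxa5), 14 (Hoxb4), 8 (Hoxc4) and 24 (Hoxd1). These matches describe the letters only.

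Hox RNA was almost confined to 3 of the 12 libraries. The summed FPKM of the 39 members was 0.0814, 0.0525, 0 and 1.69 in LPS+DMA females 1 and 2 and males 1 and 2. In the LPS arm it was 9.79 and 0.520 in females 1 and 2, and 42.9 and 13.2 in males 1 and 2. In the PBS arm it was 0.708 and 0.0853 in females 1 and 2, and 0.0828 and 1.12 in males 1 and 2. LPS female 1 and both LPS males thus lay above all other libraries, while LPS female 2, which had the same treatment, lay below LPS+DMA male 2 and 2 of the PBS libraries. The arm means were 0.456 ± 0.823 in LPS+DMA, 16.6 ± 18.4 in LPS and 0.499 ± 0.508 in PBS (SD, n = 4 each), so the SD was at least as large as the mean in each arm. The 3 high libraries held 6545 of all 6885 Hox reads, or 95.1%, with 25.7% of all reads of the series. In bulk tissue, fewer cells of a type and less RNA per cell cannot be told apart.

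**Figure D1:**
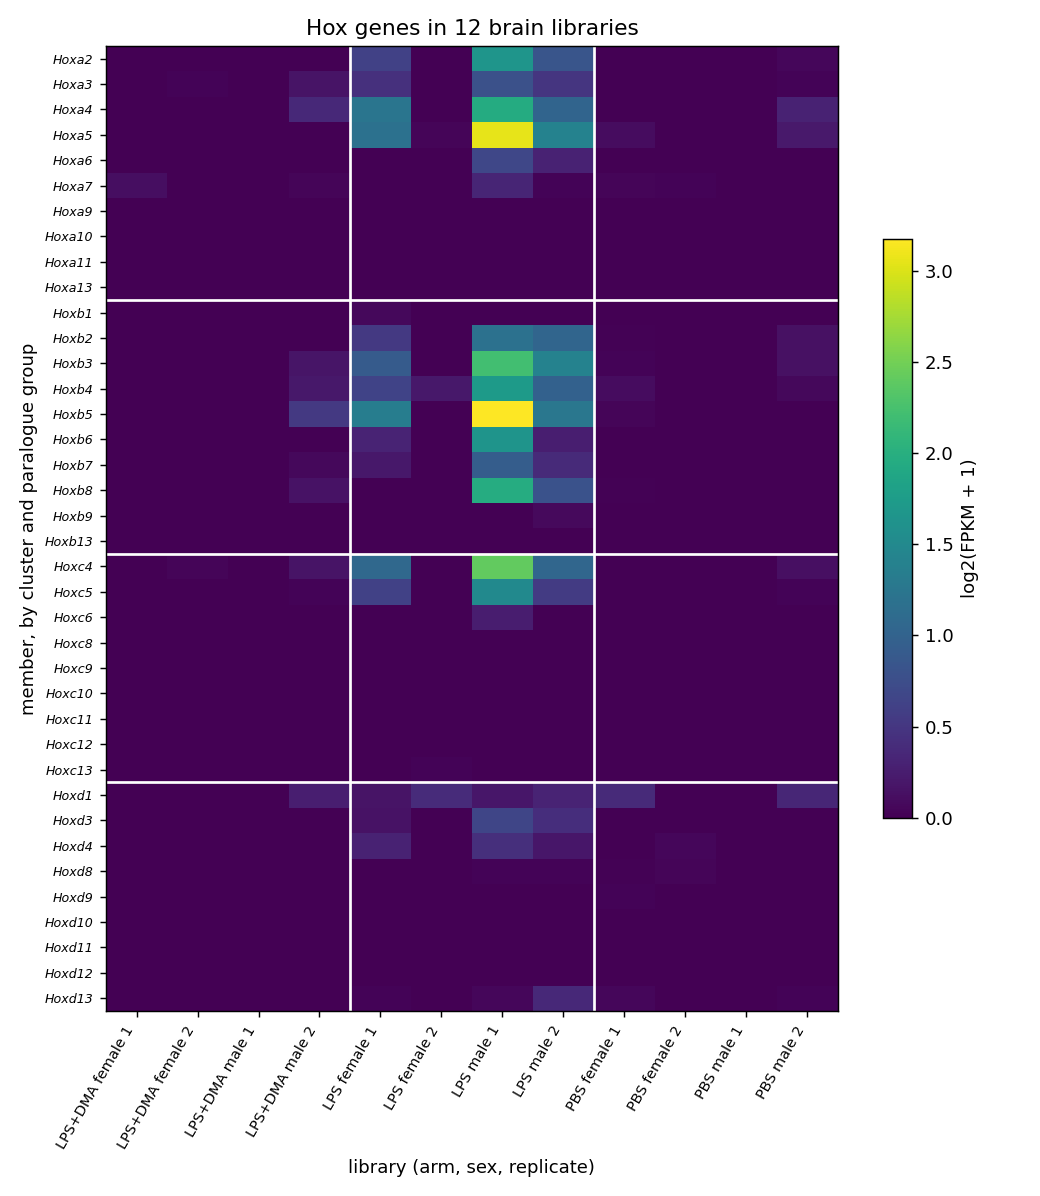
Level of 38 of the 39 Hox genes in each library, as log2(FPKM + 1) by colour, with the members in rows by cluster and paralogue group and the libraries in columns by arm, sex and replicate. The bright cells lie mostly in LPS female 1, LPS male 1 and LPS male 2 and in paralogue groups up to 8, with Hoxd13 the clearest exception to the groups.

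The number of members with at least 3 reads followed the same split. It was 1, 1, 0 and 8 in the LPS+DMA females and males, 17, 2, 21 and 20 in the LPS females and males, and 8, 2, 1 and 8 in the PBS females and males. LPS+DMA male 1 had no Hox read at all among 33.7 M reads. Of the 20 detected members, 9 had no read in any LPS+DMA library.

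Members of paralogue groups 1 to 3, which pattern the front of the hindbrain, were led by Hoxb3, Hoxa2 and Hoxb2. Hoxa2, the gene that sets the identity of hindbrain segments and of the second branchial arch, was at 0 FPKM in all 4 LPS+DMA libraries, at 0.532, 0, 2.16 and 0.792 FPKM in LPS females 1 and 2 and males 1 and 2, and at 0, 0, 0 and 0.0350 FPKM in PBS. Hoxb2, which lies downstream of the segment regulator Egr2 in mouse, was at 0 FPKM in all 4 LPS+DMA libraries, at 0.440, 0, 1.28 and 1.05 FPKM in LPS and at 0.0132, 0, 0 and 0.107 FPKM in PBS. Hoxb3 was at 0, 0, 0 and 0.136 FPKM in LPS+DMA, at 0.881, 0, 3.63 and 1.66 FPKM in LPS and at 0.0217, 0, 0 and 0.102 FPKM in PBS, each given as females 1 and 2 and then males 1 and 2. For all 3 genes the arms overlapped, because LPS female 2 had no read, and the 3 other LPS libraries stood above every library of the other arms. Hoxa3 reached 0.729 FPKM and Hoxd3 0.588 FPKM, both in LPS male 1. Hoxb1, which in the embryo marks a single hindbrain segment, had 4 reads in LPS female 1 and none elsewhere.

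Groups 4 and 5 gave the highest levels. These genes mark the caudal hindbrain and neck-level spinal cord, and Hoxa5 and Hoxb5 also act in lung and other trunk organs. Hoxb5 was at 0, 0, 0 and 0.442 FPKM in LPS+DMA females 1 and 2 and males 1 and 2, at 1.55, 0, 8.03 and 1.39 FPKM in LPS and at 0.0330, 0, 0 and 0 FPKM in PBS. Hoxa5, a regulator of caudal hindbrain and respiratory circuits in mouse, was at 0 FPKM in all 4 LPS+DMA libraries, at 1.27, 0.0342, 7.30 and 1.65 FPKM in LPS and at 0.0736, 0, 0 and 0.165 FPKM in PBS. Hoxc4 was at 0, 0.0283, 0 and 0.120 FPKM in LPS+DMA, at 1.10, 0, 4.32 and 1.06 FPKM in LPS and at 0, 0, 0 and 0.0967 FPKM in PBS. LPS male 1 was the highest library for each, and LPS female 2 had at most 0.0342 FPKM.

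The remaining members of these groups were lower. Hoxa4 was at 0, 0, 0 and 0.289 FPKM in LPS+DMA, at 1.35, 0, 2.86 and 1.03 FPKM in LPS and at 0, 0, 0 and 0.234 FPKM in PBS. Hoxb4, also known as a regulator of blood stem cells, was at 0, 0, 0 and 0.150 FPKM in LPS+DMA, at 0.552, 0.150, 2.33 and 0.976 FPKM in LPS and at 0.0717, 0, 0 and 0.0484 FPKM in PBS. Hoxc5 was at 0, 0, 0 and 0.0249 FPKM in LPS+DMA, at 0.535, 0, 1.83 and 0.463 FPKM in LPS and at 0, 0, 0 and 0.0201 FPKM in PBS. The order of the 3 high LPS libraries differed between these genes for the lower pair, with LPS female 1 above LPS male 2 for Hoxa4 and Hoxc5 and below it for Hoxb4. Hoxd4 reached 0.347 FPKM in LPS male 1.

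Groups 6 to 8 are mainly known from the spinal cord, and no list of spinal cord markers was read here. Hoxb8, which is active in the spinal cord and has been used in mouse to trace a subset of microglia, was at 0, 0, 0 and 0.117 FPKM in LPS+DMA, at 0, 0, 2.92 and 0.737 FPKM in LPS and at 0.00873, 0, 0 and 0 FPKM in PBS. LPS female 1 thus had no Hoxb8 read beside 48 reads of Hoxb4 and 146 of Hoxb5. Hoxb6 had reads only in the 3 high libraries, at 0.240, 2.12 and 0.208 FPKM in LPS female 1, male 1 and male 2. Hoxb7 reached 0.918 FPKM and Hoxa6 0.600 FPKM, both in LPS male 1.

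The mix of paralogue groups differed among the 4 libraries with at least 100 Hox reads. Groups 6 to 8 took 9.92% of the 121 Hox reads of LPS+DMA male 2 (95% Wilson interval 4.66 to 20.1%), 2.72% of 883 in LPS female 1 (1.56 to 4.68%), 13.6% of 4236 in LPS male 1 (12.2 to 15.1%) and 8.56% of 1426 in LPS male 2 (6.72 to 10.8%). The share was therefore lower in LPS female 1 than in either LPS male, with intervals that do not overlap, while the interval of LPS+DMA male 2 overlaps all 3. Groups 1 to 3 took 37.2%, 37.8%, 28.4% and 45.9% of the Hox reads in the same 4 libraries, and groups 4 and 5 took 52.9%, 59.2%, 58.0% and 43.1%. The intervals count 2 reads as 1 fragment and cover counting error only, since reads carried no molecular identifiers. With 1 library each, these are differences between libraries and not between arms.

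**Figure D2:**
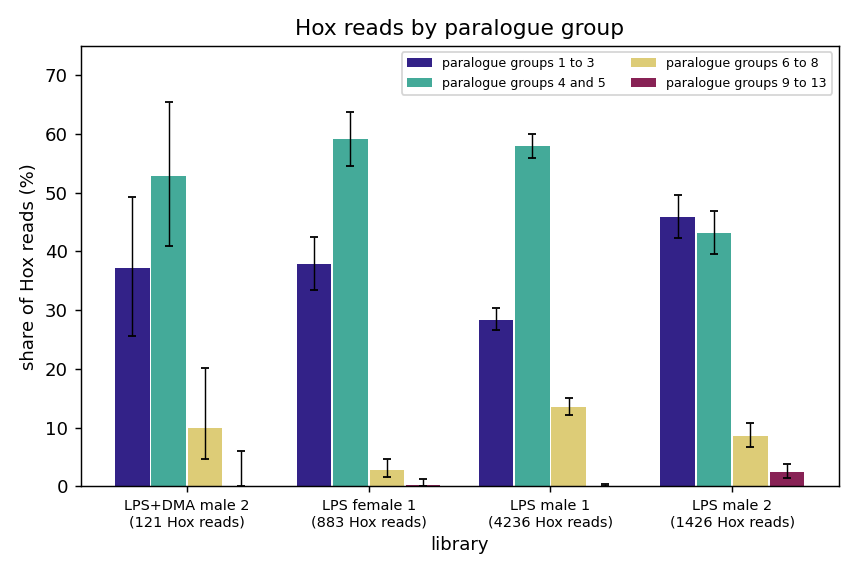
Share of Hox reads (percent) by paralogue group set in the 4 libraries with at least 100 Hox reads, as bars with 95% Wilson intervals as error bars, with the number of Hox reads under each library. Groups 6 to 8 make up 2.72% in LPS female 1 and 13.6% in LPS male 1.

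Hoxd1 did not follow the other members, and Hoxd13 differed from them in its highest library. Hoxd1, which in mouse also acts in pain-sensing neurons, was at 0, 0, 0 and 0.206 FPKM in LPS+DMA, at 0.127, 0.310, 0.141 and 0.247 FPKM in LPS and at 0.297, 0, 0 and 0.267 FPKM in PBS. Its highest library was LPS female 2, and the 3 high libraries held 34.6% of its reads. Hoxd13, a gene of digits and the urogenital tract, was at 0 FPKM in all LPS+DMA libraries, at 0.0238, 0, 0.0423 and 0.288 FPKM in LPS and at 0.0371, 0, 0 and 0.0250 FPKM in PBS. It had 28 of its 40 reads in LPS male 2 and 85% of them in the 3 high libraries. Hoxa7 had 65.2% of its 46 reads in the 3 libraries. Among the detected members, 18 of 20 were highest in LPS male 1, and the 2 exceptions were these HoxD genes.

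The libraries were then placed by hindbrain content with marker lists that hold no Hox gene. The brainstem score, the mean log2(FPKM + 1) of 14 genes of brainstem neurons, was 0.12, 0.19, 0.26 and 0.65 in LPS+DMA females 1 and 2 and males 1 and 2, 2.21, 0.27, 2.81 and 2.47 in LPS and 1.05, 0.31, 0.31 and 1.10 in PBS. Slc6a5, the glycine transporter of brainstem and spinal cord inhibitory neurons, was at 0, 0.0101, 0.0593 and 0.832 FPKM in LPS+DMA, at 19.2, 0.0623, 51.7 and 32.8 FPKM in LPS and at 3.93, 0.0376, 0.00739 and 3.27 FPKM in PBS. The same 3 LPS libraries were highest for the score and for Slc6a5, and PBS female 1, PBS male 2 and LPS+DMA male 2 came next for both. Slc6a5 is 1 of the 14 genes of the score, so these 2 orders are not independent. Those 6 libraries were also the 6 with the most Hox reads.

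Taking the 3 libraries with at least 10 FPKM of Slc6a5 as samples rich in brainstem RNA, 15 of the 20 detected Hox genes had every one of the 3 above all 9 others. Over all 19571 genes tested, 1122 showed the same ordering, or 5.73%, and among the 10 members tested, which form the matching set, 9 did. Most detected members reached 3 reads in each of these 3 libraries, and the 10 members that passed the filter for testing, at least 0.5 FPKM in 2 libraries, did so only through them, so nothing is read from the difference between these shares. These samples were picked by Slc6a5 and are not a group of the study, so no test was made between them and the rest.

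Cerebellar RNA and Hox RNA did not go together in every library. Gabra6, a receptor subunit of cerebellar granule cells, was at 0, 0, 0 and 0.170 FPKM in LPS+DMA, at 114, 0, 15.6 and 90.5 FPKM in LPS and at 74.6, 0, 0 and 0 FPKM in PBS. PBS female 1 thus combined 74.6 FPKM of Gabra6 with a Hox sum of 0.708 FPKM, while LPS male 1 combined 15.6 FPKM of Gabra6 with the highest Hox sum. PBS male 2 had no Gabra6 read and the higher Hox sum of 1.12 FPKM. The forebrain score, the mean log2(FPKM + 1) of 12 genes of forebrain neurons, ran the other way, at 4.19, 3.58, 3.52 and 3.50 in LPS+DMA, 1.73, 3.53, 0.72 and 0.81 in LPS and 2.95, 3.90, 3.30 and 3.15 in PBS. The 3 libraries with most Hox RNA were those with the lowest forebrain score, although the protocol in the labels describes whole brain.

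**Figure D3:**
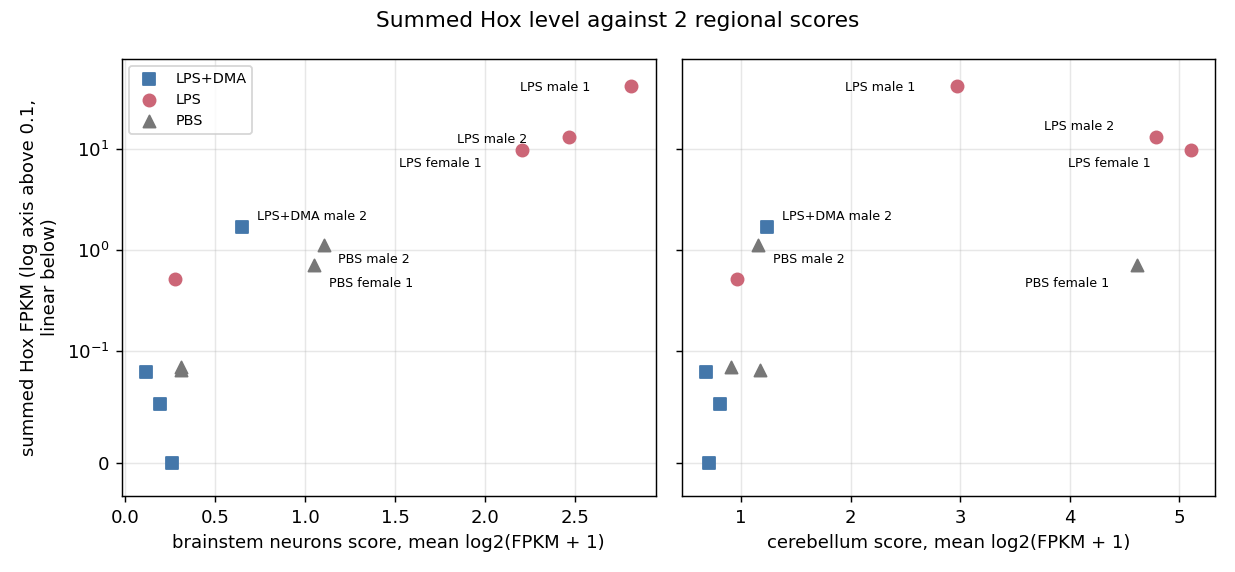
Summed Hox FPKM (vertical, logarithmic above 0.1) of each library against its brainstem score (left) and its cerebellum score (right), both as mean log2(FPKM + 1), with symbols by arm. On the left the 3 LPS libraries with the most Hox RNA have scores of 2.21 or more, and on the right PBS female 1 has a cerebellum score of 4.62 at a Hox sum of 0.708.

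In a fit with sex, arm and both regional scores, all 10 tested members had a positive coefficient for the brainstem score, and none passed after adjustment. The coefficients ran from 0.47 for Hoxb2 to 1.35 for Hoxb5 in log2 units per unit of score, with SE of 0.16 and 0.31, and their median was 0.85. All 10 had an unadjusted p under 0.05 in limma, against 2.04% of all genes in that direction, and adjusted p ran from 0.711 to 0.925. Because the filter let these members in only through the 3 libraries with the highest brainstem scores, a positive coefficient was favoured by the selection and the share of all genes lends it no support. Without LPS male 1 the coefficient of Hoxb5 was 0.53 and the median was 0.46. In that limma fit 3 of 10 members had an unadjusted p under 0.05, against 436 of 19571 genes in either direction. Without LPS female 2 these counts were 5 members and 587 genes. Over all genes 1 was called for this score (0.00511%), and that gene was Slc6a5, which is itself part of the score. When sex and arm were left out of the fit, all 10 members passed, with 335 genes called. The coefficients for the cerebellum score were all negative, between -0.30 and -0.07, with 0 of 10 called by limma, 0.358% of all genes called, and 3 of 10 at an unadjusted p under 0.05, against 2.04% of all genes in that direction. That last count of members was 0 without LPS male 1 (534 of 19571 genes in either direction), 0 without LPS male 2 (909 genes) and 9 without PBS male 2 (803 genes). These counts describe members that the filter let in only through the 3 libraries with the highest brainstem scores. The median coefficient of -0.16 was -0.03 without LPS male 1. When the brainstem score was left out, the median turned to 0.10 and the Hoxa5 coefficient to 0.13 (adjusted p = 0.769).

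LPS+DMA was compared with LPS to ask which genes differ when DMA is added. Of the 10 members tested, 3 fell in LPS+DMA, Hoxb2, Hoxb3 and Hoxb4, all in HoxB, and over all genes tested 3.88% fell and 9.67% were called in either direction. Hoxb4 averaged 0.0374 ± 0.0749 FPKM in LPS+DMA and 1.00 ± 0.948 FPKM in LPS (SD, n = 4 each), with a log2 change of -0.84, SE 0.23 and limma adjusted p = 0.0433. Hoxb3 averaged 0.0339 ± 0.0678 FPKM in LPS+DMA and 1.54 ± 1.55 FPKM in LPS, with a log2 change of -1.09, SE 0.30 and adjusted p = 0.0464. Hoxb2 had no read in LPS+DMA and averaged 0.693 ± 0.583 FPKM in LPS, with a log2 change of -0.69, SE 0.19 and adjusted p = 0.0470. All 3 calls sit just inside the threshold, and LPS female 2 had no read of Hoxb2 or Hoxb3 and was level with the highest LPS+DMA library for Hoxb4, at 0.150 FPKM in each. Every LPS+DMA library lay below every LPS library for 2 of the 10 members, Hoxa5 and, by this narrow margin, Hoxb4, against 5.98% of all genes, and the arms overlapped for the other 8. All 10 members passed the filter only through LPS libraries, which favours lower values in LPS+DMA. The shares of all genes therefore lend no support to the counts of 3 and 2. With 3 reads taken as the floor of each library, Hoxb2 was at least 24.0-fold lower in LPS+DMA, while the log2 scale with 1 FPKM added understates changes of genes this low.

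The other 7 tested members had lower means in LPS+DMA and did not pass. Hoxa5 gave a log2 change of -1.42 (adjusted p = 0.0534) and, against the same floor, its mean was at least 47.6-fold lower, or at least 18.3-fold without LPS male 1. LPS female 2, with 0.0342 FPKM of Hoxa5, lay under the LPS+DMA floor of 0.0538 FPKM. Hoxa2, with -0.78 (adjusted p = 0.0642), was at least 15.3-fold lower, or at least 7.75-fold without LPS male 1. Hoxb5 gave -1.31 (adjusted p = 0.0835), Hoxc4 -1.08 (0.0655), Hoxa4 -0.96 (0.0573), Hoxc5 -0.66 (0.0924) and Hoxb8 -0.65 (0.189), all limma adjusted p. The median change over the 10 was -0.90, against 0.01 over all genes tested. The filter asks for at least 0.5 FPKM in 2 libraries, which in all 10 members were LPS libraries, so this median and count describe members that could pass only through that arm.

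Regional marker genes also differed in the same comparison, and their part in the Hox calls was not tested. There, 5 of 14 brainstem neuron genes fell, among them Slc6a5, Glra1, Prph and Rln3, with log2 changes of -3.56, -2.60, -2.09 and -2.43. In the forebrain list 8 of 12 genes rose, and 9 of 12 choroid plexus genes fell. For the cerebellum list 0 of 12 genes were called (median log2 change -2.62), and for the midbrain list 0 of 5 tested (-0.48). Over all genes 3.88% fell and 9.67% were called in either direction. The summed FPKM of the brainstem list ranged from 1.25 to 13.4 in LPS+DMA and from 4.19 to 185 in LPS, and 3 of its genes were at 0 in all LPS+DMA libraries. No member passed with a regional score in the fit, where the median change of the 10 was -0.08 with the brainstem score, -0.31 with the choroid plexus score and -0.64 with the cerebellum score. Over all genes those fits called 1, 0 and 5, against 1892 without a score, so the loss of calls is not particular to the members. Without the 3 libraries rich in Slc6a5, 0 of 10 passed, Hoxb3 gave 0.01 and Hoxb4 -0.17. Those libraries hold 95.1% of the Hox reads and the 1 LPS library left has no read of 8 of the 10 members, so values near 0 were fixed by leaving them out. The count of members called was 9 without LPS female 2 (3465 of all genes called), 1 without PBS female 1 (1721 of all genes) and 0 when any other single library was left out (7 to 1565 of all genes).

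LPS was compared with PBS to ask which genes respond to LPS. All 10 tested members had higher means in LPS, with log2 changes from 0.65 (Hoxb2) to 1.43 (Hoxb5), and 0 of 10 passed, with limma adjusted p from 0.288 to 0.446. Over all genes 2, or 0.0102%, were called. At an unadjusted p under 0.05 the count was 10 of 10 members, against 4.55% of all genes in that direction, but all 10 had passed the filter only through LPS libraries, which favours higher means in LPS. The voom fit also called 0 members after adjustment. Hoxb5 averaged 2.74 ± 3.59 FPKM in LPS and 0.00826 ± 0.0165 FPKM in PBS (SD, n = 4 each), and Hoxb4 1.00 ± 0.948 FPKM in LPS and 0.0300 ± 0.0360 FPKM in PBS. Every LPS library lay above every PBS library for 1 member, Hoxb4, against 3.59% of all genes. The arms overlapped for the other 9, since LPS female 2 held no read of 8 of them and 2 reads of Hoxa5. Without LPS female 2, 8 of 10 members passed, with 672 genes called, and no other single library left out gave a call.

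LPS+DMA and PBS could not be separated by Hox RNA. None of the 10 members passed in limma and voom called 0, with 0.0102% of all genes called. The count at an unadjusted p under 0.05 was 0 of 10, against 11.4% of all genes. All 10 members passed the filter only through LPS libraries and were at most 0.442 FPKM in every LPS+DMA and PBS library. Low values in both arms favour small differences, so nothing is read from these shares. The log2 changes ran from -0.08 (Hoxa5) to 0.12 (Hoxb5), and the 95% interval for Hoxb5 reached from -0.86 to 1.10. That interval rests on a spread estimated over all 12 libraries, and in LPS Hoxb5 ran from 0 to 8.03 FPKM. In the 2 arms compared Hoxb5 was at most 0.442 FPKM, so the width does not describe their spread alone. This comparison shares the LPS+DMA libraries and the PBS libraries with the comparisons above.

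**Figure D4:**
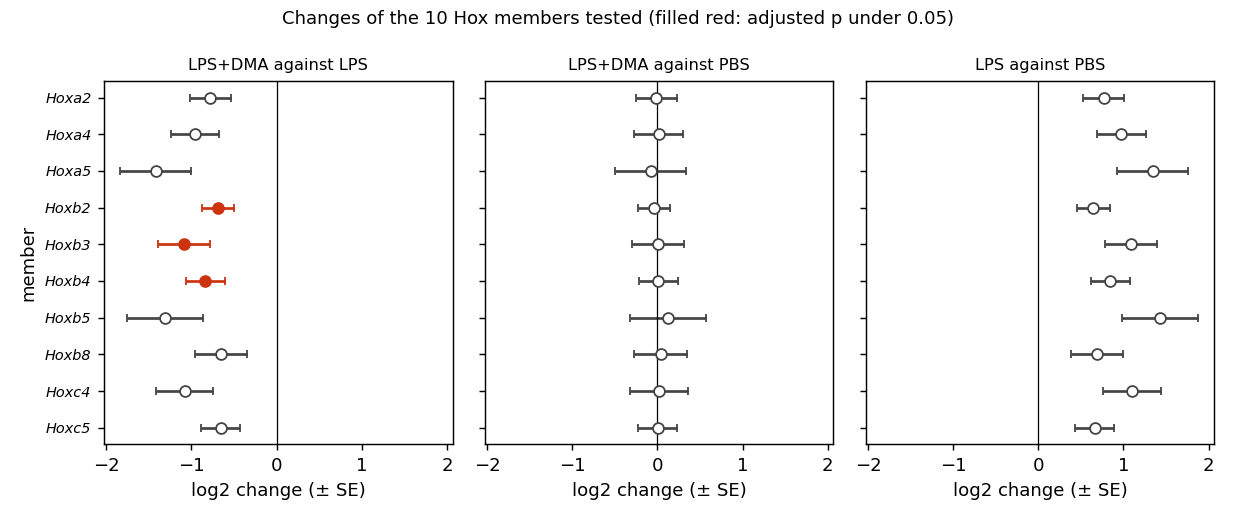
Log2 change (horizontal, with SE as error bars) of the 10 Hox members tested in each of the 3 comparisons between arms, with filled red points for an adjusted p under 0.05. Hoxb2, Hoxb3 and Hoxb4 are filled in LPS+DMA against LPS, and no point is filled in the 2 comparisons with PBS.

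Males and females were compared within the same fit. All 10 members had higher means in males, by 0.25 (Hoxc5) to 0.59 (Hoxb5) on the log2 scale, and 0 of 10 passed, with limma adjusted p from 0.581 to 0.706. The count at an unadjusted p under 0.05 was 0 of 10 in limma on log2(FPKM + 1), against 9.02% of all genes. In voom on recovered reads it was 10 of 10, against 1664 of 19571 genes, and voom called 0 members after adjustment. The 3 libraries that hold 95.1% of the Hox reads are LPS female 1 and both LPS males. Over all genes 7, or 0.0358%, were called. The highest library of each arm by Hox sum was male 2 in LPS+DMA, male 1 in LPS and male 2 in PBS. No member passed a test of a difference between the sexes in the treatment effects, with adjusted p of 0.853 or more.

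Lists of partners and regulators of the Hox proteins were read beside the members. Among 9 cofactor genes of the Meis, Pbx and Pknox families, which bind DNA together with Hox proteins, 2 rose in LPS+DMA against LPS and 7 did not pass. Pknox2, which rose, averaged 6.19 ± 2.09 FPKM in LPS+DMA and 2.81 ± 1.39 FPKM in LPS (log2 change 0.92, adjusted p = 0.0328). Meis1 averaged 0.711 ± 0.317 FPKM in LPS+DMA and 2.13 ± 0.999 FPKM in LPS without passing (adjusted p = 0.0880). Pbx and Meis genes are also expressed in forebrain neurons, so they are no hindbrain markers.

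Of the 14 tested genes of the retinoic acid pathway, which opens the Hox clusters in the embryo, 1 fell in LPS+DMA against LPS. This was Aldh1a1, a retinaldehyde dehydrogenase, at 12.2 ± 7.58 FPKM in LPS+DMA and 46.0 ± 19.7 FPKM in LPS (log2 change -1.84, adjusted p = 0.0469). The receptor gene Rarb averaged 6.50 ± 4.36 FPKM in LPS+DMA and 1.96 ± 1.22 FPKM in LPS and did not pass (adjusted p = 0.113). None of the 16 Polycomb and trithorax genes, which keep Hox clusters silent or active, was called, and none of the 5 tested segmentation and upstream regulators. In LPS against PBS and in LPS+DMA against PBS no gene of these 4 lists passed.

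Noncoding genes inside the clusters and the genes beside them were measured in the same way. Of the 16 noncoding genes listed there, 3 were tested and 1 fell in LPS+DMA against LPS, Hotairm1, an antisense transcript of HoxA, at 0.0276 ± 0.0357 FPKM in LPS+DMA and 0.767 ± 0.581 FPKM in LPS (log2 change -0.72, adjusted p = 0.0367). Hoxb3os was at 0 in all LPS+DMA libraries and at 0.571, 0, 1.76 and 0.909 FPKM in LPS (adjusted p = 0.0508), the same order of libraries as Hoxb3. Of 7 tested genes flanking the clusters 1 fell, Skap2 beside HoxA, at 1.20 ± 0.418 FPKM in LPS+DMA and 2.35 ± 0.501 FPKM in LPS (log2 change -0.61, adjusted p = 0.0392). Evx1, a homeobox gene at the caudal end of HoxA that is known from spinal interneurons, was at 0 in all LPS+DMA libraries and at 0.482, 0, 0.885 and 0.906 FPKM in LPS (adjusted p = 0.0522). Over all genes tested 3.88% fell. The 3 tested noncoding genes and Evx1 passed the filter only through LPS libraries, which favours lower values in LPS+DMA, so that share lends no support to their falls.

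Overlapping genes limit how far single members can be separated. The spans of 23 of the 39 members overlap another gene of the table, 11 overlap another member and 14 overlap a gene on the opposite strand. Hoxa4 and Hoxa5 lie inside the Hoxa3 span, Hoxc5 spans Hoxc6, Hoxb2 and Hoxb3 both share bases with Hoxb3os, and Hoxb5 lies within Hoxb5os. The labels describe preparations with and without strand information and do not say which was used, so reads of such pairs cannot be told apart.

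The genes outside the clusters with the most similar pattern were ranked among 14088 protein-coding genes by Spearman's rho with the summed Hox FPKM over the 12 libraries. Esyt1, Fgf18, Rassf4, Esrrg and Panx2 led with 0.972, followed by Ahnak2, Lgi2 and Slc6a9 with 0.965 and Cast and Ubxn2a with 0.958. The 12 points share the regional makeup of the libraries, so the ranking is a description. Slc6a9, the glycine transporter of glia and some neurons, was at 7.29, 6.62, 2.27 and 15.3 FPKM in LPS+DMA, 20.4, 8.86, 26.6 and 26.4 FPKM in LPS and 14.7, 9.21, 13.7 and 16.6 FPKM in PBS. Esrrg, a nuclear receptor, was at 6.00, 4.80, 3.42 and 12.3 FPKM in LPS+DMA, 14.8, 7.14, 16.4 and 15.9 FPKM in LPS and 10.9, 5.47, 6.32 and 8.38 FPKM in PBS. Both genes had reads in every library, unlike the Hox genes, and both were highest in the 3 libraries rich in Hox RNA.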

How the data were processed

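RNA-seq of 12 brain libraries was analysed from 1 deposited table of FPKM values, which the authors made from aligned reads, with gene names, lengths and GRCm39 coordinates. The submitters' processing notes list STAR, HISAT2 2.2.1, GATK, featureCounts 2.0.6, fastp, edgeR 4.0.16 and DESeq2 1.42.0, without roles. FPKM multiplied by gene length gave whole reads, within 0.1 reads, for 100% of values up to 1000 reads, with totals of 27.5 to 41.4 M (median 34.4 M). Of the recovered values from 1 to 100 reads 67.4% were even, so mates of a pair were often counted as 2 reads, and 3 reads can be 2 fragments. The deposited FPKM follow a median-of-ratios scaling, found from the values. Nothing in the labels says that replicates share a litter or a day, and replicate numbers did not pair the libraries.

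Genes with at least 0.5 FPKM in at least 2 libraries (19571) were tested as log2(FPKM + 1) with limma 3.58.1 in R 4.3.3 (trend, robust), 1 model of sex and arm, and Benjamini-Hochberg adjustment over all genes at 0.05. Scores are mean log2(FPKM + 1) of a marker list. Values in each library are given for the 10 members that passed the filter. Further members named with values (Hoxa3, Hoxa6, Hoxa7, Hoxb1, Hoxb6, Hoxb7, Hoxc6, Hoxd1, Hoxd3, Hoxd4 and Hoxd13) and the list genes that did not pass were picked after their values were seen. The members, the lists and the regional scores were chosen with earlier results of these data known. Alternatives covered the pseudocount, filter, scaling, voom on recovered reads, scores as covariates, the samples fitted and each library left out. Leaving out libraries rich in Slc6a5 was chosen after the values were seen. The fit was tested on simulated data. Promoter sequences are from RefSeq (GRCm38.p6), and no coordinates were converted. Protein sequences were not used here. Some genes are not reported here.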

Additional observations from a re-analysis of the deposited data

Results flagged for a closer look

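In arms of 4, a library was singled out where its gap to the nearest other library, over the range of the arm, exceeded Dixon's 95% critical value. This held for 24 of 60 pairs of a measure and an arm, where chance gives about 1 in 20. The measures are not independent, since they come from the same libraries, and many values in the LPS+DMA and PBS arms are 0.

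In LPS+DMA, male 2 stood above the 3 other libraries for Hoxa4 (0.289 FPKM), Hoxb3 (0.136), Hoxb4 (0.150), Hoxb5 (0.442), Hoxb7 (0.0498), Hoxb8 (0.117), Hoxc5 (0.0249), Hoxd1 (0.206), the summed Hox level (1.69), Slc6a5 (0.832) and Gabra6 (0.170), all in FPKM. In PBS, male 2 stood above the others for Hoxa2 (0.0350 FPKM), Hoxa3 (0.0207), Hoxa4 (0.234), Hoxb2 (0.107), Hoxc4 (0.0967) and Hoxc5 (0.0201). PBS female 1 stood above the others for Hoxb5 (0.0330 FPKM), Hoxb8 (0.00873), Gabra6 (74.6), Ttr (327) and the cerebellum score (4.62). Hoxb6 in LPS male 1 (2.12 FPKM) stood above the rest of its arm. Ttr, the thyroid hormone carrier of the choroid plexus, stood above the rest of the arm in LPS+DMA female 1 (416 FPKM). The Hox values of LPS+DMA male 2 rest on 2 to 32 reads each. Those of PBS male 2 rest on 2 to 12 reads each, and in PBS female 1 Hoxb5 rests on 4 reads and Hoxb8 on 1. Where the 3 other libraries of an arm are at 0, any read is singled out by this rule.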

How the results depend on the processing

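In LPS+DMA against LPS, the main fit called 3 of 10 members and 1892 of 19571 genes. With a pseudocount of 0.1 the calls were 2 members (Hoxb4 kept, Hoxa5 gained, Hoxb2 and Hoxb3 lost) and 1910 genes. A filter of 0.1 FPKM gave 1 of 18 members tested, with 1275 of 27416 genes. No filter gave 0 of 26 members tested, with 83 of 35401 genes. Per-million scaling and voom on recovered reads each gave 5 of 10 members, with 2872 and 2998 of 19571 genes. These 2 settings moved the median of all genes to -0.11 and -0.18. The count of members called was 0 with the replicate block (2040 genes called). It was also 0 with the brainstem, cerebellum or choroid plexus score in the fit (1, 5 and 0 genes called). When only the arms compared were fitted it was 0, with 5 genes called, so that loss was not particular to the members. Among libraries with Gabra6 under 1 FPKM or Slc6a5 under 10 FPKM, which keep 1 LPS library, the median change of the members was 0.0025 and 0.0044. Leaving out each library gave 0 to 9 calls in LPS+DMA against LPS and 0 to 8 in LPS against PBS, with the highest values without LPS female 2. The cause of these shifts was not tested. Against the brainstem score the count was 10 with neither sex nor arm in the fit, and 0 in the other settings. Counts for LPS+DMA against PBS, male against female and the cerebellum score were 0 in every setting run.

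Values that changed sign were small. Hoxa5 in LPS against PBS gave -0.018 with Slc6a5 under 10 FPKM. In LPS+DMA against LPS, Hoxb3 gave 0.0043 with Gabra6 under 1 FPKM and 0.0092 with Slc6a5 under 10 FPKM, and Hoxb5 gave 0.016 with the brainstem score, 0.053 with Gabra6 under 1 FPKM and 0.072 with Slc6a5 under 10 FPKM. Hoxa5 gave 0.13 against the cerebellum score with the other score left out. The detection count of 20 was 0 when 3 reads were asked in all 12 libraries. The correlation of replicate 1 minus replicate 2 between arms lay between -0.07 and 0.45 over all genes, so the numbers were not taken as pairs, and male against female has no separate value with the block. Both fits without the hindbrain-rich libraries keep 1 LPS library, assumed to vary like the other groups, and changes near 0 there follow from leaving out the libraries that hold the Hox reads. Few reads limit what can be said of the members, since 13 had no read and most others a few reads outside 3 libraries. Whether more depth would detect further members was not tested.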
